A study of Noccaea goesingensis with 12 samples.

Results

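Glutathione S-transferases (GSTs) were followed by their *A. thaliana* identifiers in roots of *Noccaea goesingensis*, a nickel hyperaccumulator, because the reads had been aligned to the *A. thaliana* genome. The family was taken as 44 identifiers of the tau, phi, zeta, theta and lambda classes, and 4 further GST genes placed in glucosinolate synthesis were left out. Of the 44 genes, 21 were found in at least 1 of the 2 deposited tables, among 5273 genes listed there in all. The tables do not pair identifiers with gene names, and genes are therefore given by identifier and class.

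GSTs join the tripeptide glutathione to reactive or toxic compounds, and the conjugates are moved to the vacuole. The tau and phi classes are the large plant classes and are known for their response to stress, hormones and foreign chemicals. The zeta class isomerizes an intermediate of tyrosine breakdown, theta enzymes act as glutathione peroxidases, and lambda enzymes transfer thiols rather than conjugate. In plants, tau and phi genes often lie in tandem clusters of similar copies. Glutathione itself is also known as a component of nickel tolerance in *Noccaea*.

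Seeds came from a serpentinite population (TM, metallicolous) and from a dolomite population (NTM, non-metallicolous), and plants of each population were grown with or without Ni. There were 2 libraries for TM with Ni, 3 for NTM with Ni, 4 for TM without Ni (control) and 3 for NTM without Ni (control), each from the roots of 5 pooled plants after 3 weeks of treatment. These numbers follow the sample labels, while the methods give the same number for every group. The label of a TM library with Ni holds a letter in place of a digit. Read as a digit, it repeats the number of a TM library without Ni. Another number is shared by a TM library with Ni and an NTM library without Ni. All were placed as labelled, and the library numbers given here rest on this. The group values were taken as the authors deposited them, and which libraries entered each value could not be examined. The sample labels place all plants on substrate of a mine dump mixed with sand, while the methods name sand and perlite for all groups. Each group is represented by seeds of a single population, so that ecotype and population cannot be told apart.

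The deposited values were FPKM, read counts scaled to the length of the gene and the depth of the library, with 1 value for each group of libraries. Such values are scaled for comparison between genes, but how well the *Noccaea* reads of each gene aligned to *A. thaliana* also enters its level. This part was not examined, and orders of genes by level are to be read with it in mind. The values carry no replicate error, and no test was made here. The group files head the same values as TPM, and which of these units they are was not settled. The tables list only genes with an unadjusted *p*-value of the authors under 0.05 between TM and NTM, 1944 genes with Ni and 4460 without Ni. Every listed gene therefore had to pass this cut, which is not corrected for the number of genes tested. Some listed genes can have passed it by chance, and a gene that was not listed has no value in that state. In the study's alignment statistics, 1 of the 3 NTM libraries with Ni was far shallower than all others, and its weight in the NTM value could not be examined. Of 11 root genes fixed as markers, 4 were listed with Ni and 5 without Ni, none at 0, and the remaining ones have no value here. *IRT1*, the iron transporter of the root surface (AT4G19690), stood at 346 FPKM in TM and 38.1 FPKM in NTM with Ni. The other 3 root markers listed with Ni were lower in TM, with log2 ratios of TM over NTM from -2.89 to -1.06, and all 5 listed without Ni were lower, with a sum of 272 FPKM in TM and 535 FPKM in NTM. The part of these root markers in the GST values was not tested. Of 6 green shoot markers, 1 was listed with Ni (12.5 FPKM in TM and 35.9 FPKM in NTM) and 3 without Ni (a sum of 58.4 FPKM in TM and 171 FPKM in NTM). All of these shoot markers were lower in TM and none stood at 0. Their part in the GST values was likewise not tested. In whole roots, fewer cells of a type and less RNA per cell cannot be told apart.

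With Ni, 13 GST genes were listed, 7 higher and 6 lower in TM than in NTM, and without Ni 14 were listed, 7 higher and 7 lower. TM was higher in 46.2% of all listed genes with Ni and in 44.5% without Ni, so that the GSTs were split between directions much as the tables were. A log2 ratio of TM over NTM beyond 1 in size, after 0.1 FPKM was added to both values, was taken as a large difference. It was reached by 12 of the 13 GST genes with Ni (92.3%), beside 86.1% of all listed genes, and by 8 of the 14 without Ni (57.1%), beside 60.2%. With Ni these were 7 genes higher in TM (39.4% of all listed genes) and 5 lower (46.8%), and without Ni 4 higher (27.4%) and 4 lower (32.8%). The ratios were also centred on the median of all listed genes, which was -0.91 with Ni and -0.71 without Ni. Only genes past the authors' p-value cut are listed, so that this median need not be a shift shared by all genes. Centring on it moves every ratio towards TM higher. The split of the large differences was then 7 higher and 4 lower with Ni but 7 higher and 1 lower without Ni. The same split over all listed genes was not counted. The median log2 ratio of the GST genes was 1.01 with Ni and 0.00 without Ni. In sets divided so evenly between directions this median rests on the middle genes, with Ni on AT5G02790 alone.

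**Figure D1:**
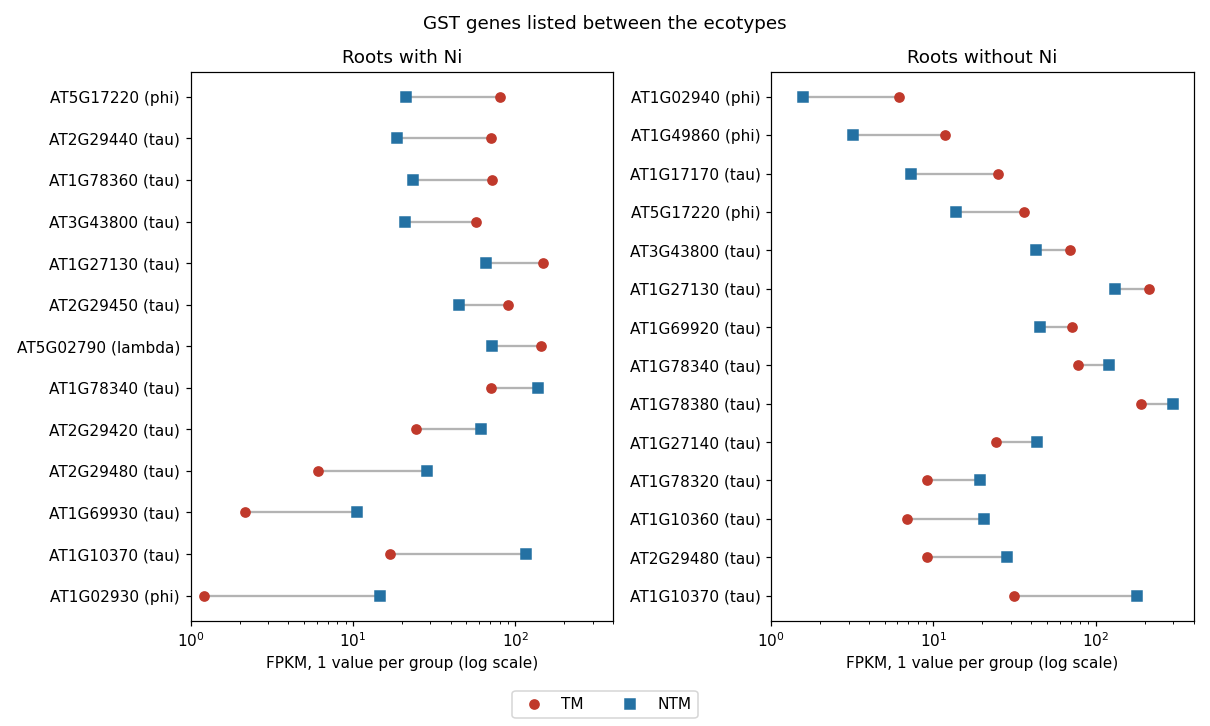
FPKM of each listed GST gene (horizontal axis, log scale, 1 value per group) in the roots of TM (circles) and NTM (squares), with Ni on the left and without Ni on the right, ordered by the ratio of the ecotypes. The widest gaps were those of AT1G02930 and AT1G10370, both lower in TM, with Ni, and that of AT1G10370 without Ni.

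By class, of the 27 tau genes 16 were in at least 1 table, of the 10 phi genes 4, and of the 3 lambda genes 1, while the 2 zeta and the 2 theta genes were in neither. The 23 genes in neither table were the tau genes AT2G29490, AT2G29470, AT2G29460, AT3G09270, AT5G62480, AT1G74590, AT1G59670, AT1G59700, AT1G17180, AT1G17190 and AT1G53680, the phi genes AT4G02520, AT2G02930, AT1G02950, AT1G02920, AT2G47730 and AT3G62760, the zeta genes AT2G02390 and AT2G02380, the theta genes AT5G41210 and AT5G41240, and the lambda genes AT5G02780 and AT3G55040. Nothing is said of their level, since a gene without a listed difference and a gene that was too low to be tested look the same here. The number of genes tested by the authors is not given in the tables, so that the share of GST genes listed has no background to be set against.

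The listed GST genes had short loci. Locus length had a median of 1124 bp with Ni and 1095.5 bp without Ni, beside 1956.5 bp and 1913 bp for all listed genes. The median level with Ni was 70.4 FPKM in TM and 28.5 FPKM in NTM, where all listed genes had 24.6 FPKM and 27.3 FPKM. Without Ni it was 28.2 FPKM in TM and 35.5 FPKM in NTM, against 15.4 FPKM and 17.2 FPKM over all listed genes. None of the GST values was 0.

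Among the listed GST genes a tau gene had the highest level in each group. The classes cannot be ranked by level, since genes that were not listed have no value. In TM without Ni, AT1G27130 (212 FPKM) and AT1G78380 (190 FPKM) made up 27.2% and 24.3% of the summed FPKM of the listed GST genes. In NTM without Ni, AT1G78380 (297 FPKM) and AT1G10370 (180 FPKM) made up 31.1% and 18.9%. The leading pairs of the ecotypes thus shared AT1G78380 and differed in the other gene. With Ni the leading genes were AT1G27130 (148 FPKM) and the lambda gene AT5G02790 (144 FPKM) in TM, and the tau genes AT1G78340 (138 FPKM) and AT1G10370 (117 FPKM) in NTM. Over the listed GST genes the sum was 784 FPKM in TM and 637 FPKM in NTM with Ni, and 781 FPKM in TM and 956 FPKM in NTM without Ni. These sums run over different genes in each state and are comparable only between the ecotypes.

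**Figure D2:**
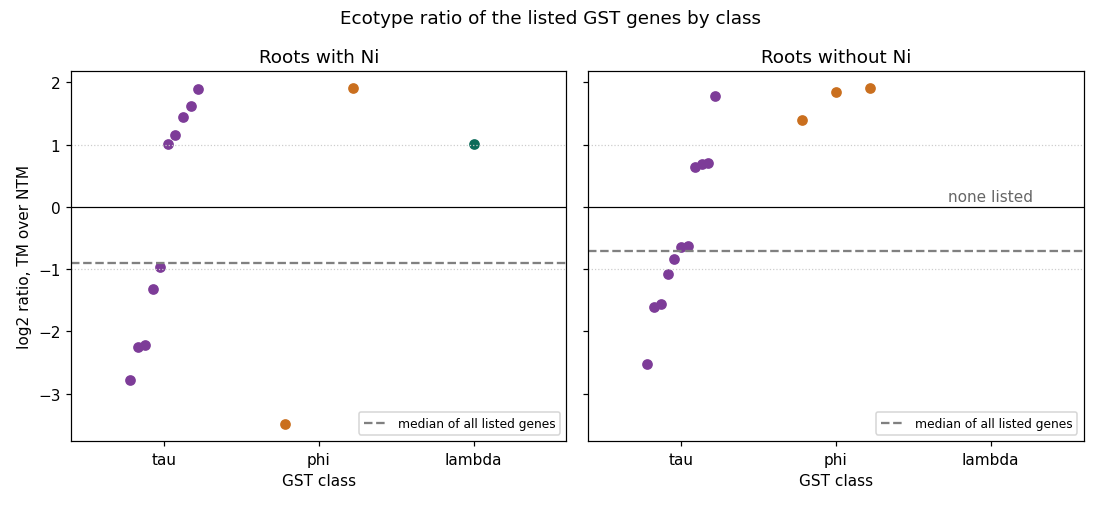
Log2 ratio of TM over NTM (vertical axis) for each listed tau, phi and lambda gene, with Ni on the left and without Ni on the right, where each point is a gene and the dashed line is the median of all listed genes (-0.91 with Ni, -0.71 without Ni). Tau genes lay on both sides of 0 in both states, and the 3 phi genes listed without Ni were all above 0.

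Tau genes went both ways. With Ni, 5 of the 10 listed were higher and 5 lower in TM, with log2 ratios from -2.78 to 1.90. Without Ni, 4 of the 11 listed were higher and 7 lower, with ratios from -2.52 to 1.78.

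The largest tau cluster, 7 genes on chromosome 2, had 4 listed genes within 14758 bp in the TAIR10 coordinates of the files. The first of the listed genes was AT2G29420 (chromosome 2, 12616564 to 12618899), with 24.6 FPKM in TM and 61.5 FPKM in NTM with Ni. Its neighbour AT2G29440 (12620060 to 12621148), 1160 bp further on, had 70.4 FPKM in TM and 18.8 FPKM in NTM with Ni. AT2G29450 (12624586 to 12625637) had 90.6 FPKM in TM and 44.9 FPKM in NTM with Ni. The log2 ratios of these 3 genes were -1.32, 1.90 and 1.01, and none was listed without Ni. AT2G29480 (12630198 to 12631321), the last of the listed genes, was lower in TM in both states, with 6.06 FPKM in TM and 28.5 FPKM in NTM with Ni, and 9.16 FPKM in TM and 28.2 FPKM in NTM without Ni. Among the listed genes, 2 higher in TM thus lay between 2 lower in TM, while the other 3 genes of the cluster have no value. After centring on the median of all listed genes the ratio of AT2G29420 was -0.41. Over these 4 genes the sum with Ni was 192 FPKM in TM and 154 FPKM in NTM. The ratio of a sum must lie between the ratios of its genes, which went both ways here. The sum also leaves out the 3 genes without a value, so that it is not the level of the cluster.

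All 4 genes of the tau cluster AT1G78320 to AT1G78380, counted without the glucosinolate-associated neighbour, were listed in some state, over 20470 bp of chromosome 1. AT1G78380 (29486413 to 29487906) was the most abundant GST transcript listed in NTM, with 190 FPKM in TM and 297 FPKM in NTM without Ni. AT1G78340 (29472892 to 29473863) had 70.6 FPKM in TM and 138 FPKM in NTM with Ni, and 77.9 FPKM in TM and 121 FPKM in NTM without Ni. AT1G78320 (29467437 to 29468374) had 9.11 FPKM in TM and 19.4 FPKM in NTM without Ni. These 3 genes were lower in TM, by log2 ratios of -0.65 (AT1G78380), -0.64 (AT1G78340) and -1.09 (AT1G78320) without Ni. Centred on the median of all listed genes, which need not be a shift shared by all genes, the first 2 were 0.06 and 0.07. AT1G78360 (29482070 to 29482966) lay between AT1G78340 and AT1G78380 and was listed only with Ni. It had 71.6 FPKM in TM and 23.3 FPKM in NTM, a log2 ratio of 1.62. In that state AT1G78340 differed the other way, with a log2 ratio of -0.97, while AT1G78380 and AT1G78320 have no value.

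AT1G10370 (chromosome 1, 3397081 to 3398358) had the lowest TM ratio of the tau genes in both states. It stood at 16.9 FPKM in TM and 117 FPKM in NTM with Ni, a 6.90-fold difference and a log2 ratio of -2.78, and 113 of the 1944 listed genes had a lower ratio. Without Ni it stood at 31.3 FPKM in TM and 180 FPKM in NTM, a 5.75-fold difference and a log2 ratio of -2.52, with 166 of the 4460 listed genes below it. Its tandem neighbour AT1G10360 (3395558 to 3396849), 231 bp away, was also lower in TM, with 6.87 FPKM in TM and 20.4 FPKM in NTM without Ni, a log2 ratio of -1.56. This was the tightest of the pairs listed, and both of its genes were lower in TM.

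In another tau pair the neighbours stood on opposite sides. AT1G27130 (chromosome 1, 9425460 to 9426886) had 148 FPKM in TM and 66.3 FPKM in NTM with Ni, and 212 FPKM in TM and 132 FPKM in NTM without Ni. AT1G27140 (9427858 to 9428716), 971 bp away, had 24.3 FPKM in TM and 43.5 FPKM in NTM without Ni. Without Ni the log2 ratio was 0.69 for AT1G27130 and -0.84 for AT1G27140, and the ratio of AT1G27140 was -0.13 after centring on the median of all listed genes. The genes of a further pair were listed in different states and are not set against each other. AT1G69920 (26334250 to 26335558) had 71.2 FPKM in TM and 45.5 FPKM in NTM without Ni, and AT1G69930 (26337497 to 26338795) had 2.17 FPKM in TM and 10.7 FPKM in NTM with Ni, a log2 ratio of -2.24.

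From the tau cluster AT1G17170 to AT1G17190 only AT1G17170 was listed (chromosome 1, 5869846 to 5870840), with 25.0 FPKM in TM and 7.24 FPKM in NTM without Ni. Its log2 ratio of 1.78 was the highest of the tau genes in that state. AT3G43800 (chromosome 3, 15660859 to 15661925), the listed tau gene outside any cluster, had 57.0 FPKM in TM and 20.8 FPKM in NTM with Ni, and 69.4 FPKM in TM and 42.8 FPKM in NTM without Ni. It was higher in TM in both states, by log2 ratios of 1.45 with Ni and 0.70 without Ni.

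**Figure D3:**
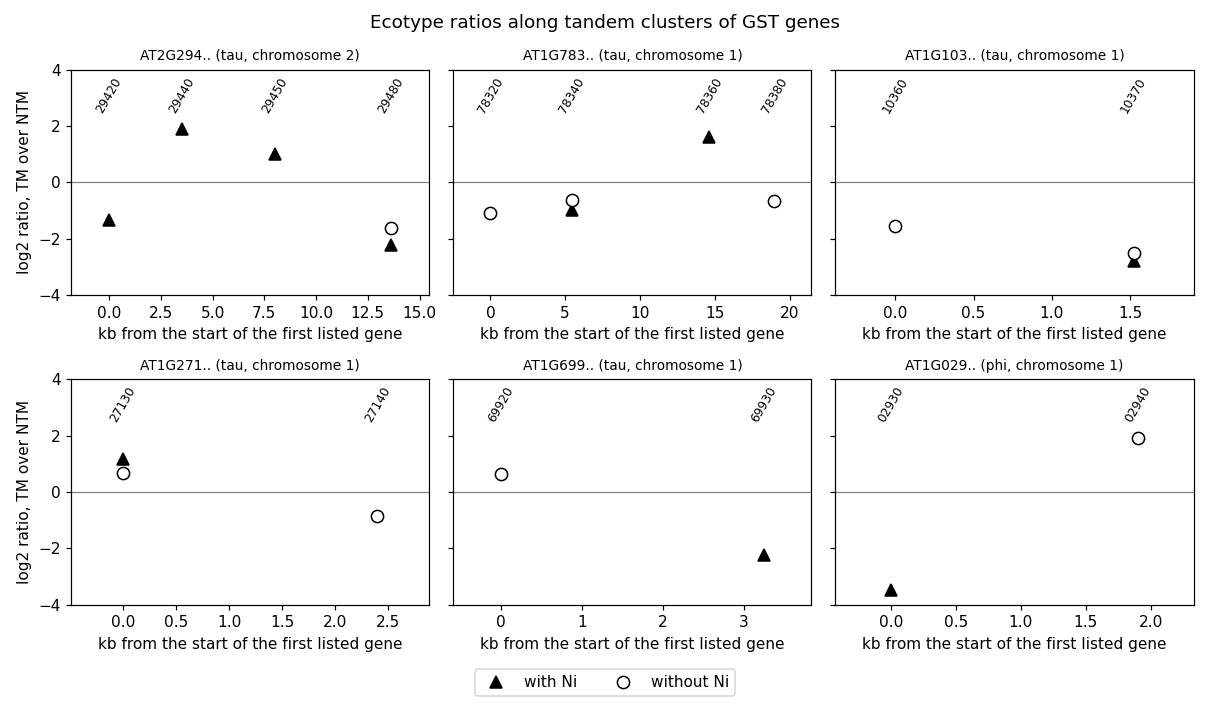
Log2 ratio of TM over NTM (vertical axis) against the distance of each gene from the start of the first listed gene of its cluster in kb (horizontal axis), for 6 tandem clusters, with filled triangles for roots with Ni and open circles for roots without Ni. Genes with ratios above and below 0 lay side by side in the clusters on chromosome 2 and at AT1G27130, and both genes at AT1G10370 were below 0.

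The 3 phi genes listed without Ni were all higher in TM, while the other 7 have no value in that state. AT5G17220 (chromosome 5, 5658460 to 5659386) had 36.4 FPKM in TM and 13.7 FPKM in NTM, a log2 ratio of 1.40. AT1G49860 (chromosome 1, 18458666 to 18459906) was low, with 11.8 FPKM in TM and 3.21 FPKM in NTM, a log2 ratio of 1.84. AT1G02940 (chromosome 1, 663079 to 664128) was lower still, with 6.15 FPKM in TM and 1.56 FPKM in NTM, and its log2 ratio of 1.91 was the highest of all GST genes in this state. This rank was lost when 1 FPKM was added in place of 0.1 FPKM. The ratio was then 1.48, below those of the tau gene AT1G17170 (1.66) and of AT1G49860 (1.60). These 3 phi genes were higher in TM, where 44.5% of all listed genes were.

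With Ni, the 2 listed phi genes held the extremes of the listed GST genes in both directions. AT5G17220 had 80.2 FPKM in TM and 21.2 FPKM in NTM, a log2 ratio of 1.91, next to 1.90 for the tau gene AT2G29440. AT1G02930 (chromosome 1, 661177 to 662456), 622 bp from AT1G02940, had 1.21 FPKM in TM and 14.6 FPKM in NTM. This was a 12.1-fold difference and a log2 ratio of -3.49, and 58 of the 1944 listed genes had a lower ratio. Its value in TM was among the lowest of the table, above that of 2.26% of the listed genes, and AT1G02930 was not listed without Ni.

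The lambda gene AT5G02790 (chromosome 5, 632796 to 635125) had 144 FPKM in TM and 71.7 FPKM in NTM with Ni. Its log2 ratio of 1.01 was just past the threshold, and its tandem neighbour AT5G02780 was not listed.

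Position could be set beside direction for the family as a whole. Of the 32 GST genes in tandem clusters 18 were listed in some state, and of the 12 outside clusters 3 were. The 3 outside clusters, AT3G43800, AT5G17220 and AT1G49860, were higher in TM wherever they were listed. Clustered genes were higher in TM in 5 of 11 cases with Ni (45.5%) and in 4 of 11 without Ni (36.4%), beside 46.2% and 44.5% of all listed genes. The genes outside clusters were 2 with Ni and 3 without Ni, and the difference by position was not tested. Copies of a cluster share sequence, and the reads of a *Noccaea* transcript can be assigned to any similar *A. thaliana* copy, so that values of single copies are to be read as uncertain. How reads were divided among copies was not tested.

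Both states could be compared for the 6 GST genes in both tables. In all 6 the direction between TM and NTM was the same with and without Ni, as in 98.9% of the 1131 genes of both tables. The log2 ratio was larger in size with Ni in all 6, as in 74.3% of the 1131 genes. The differences between these ratios were not tested, since each group had 1 value, and whether the tables share a common normalization is not stated in them.

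The change with Ni within an ecotype was formed for these 6 genes by dividing the value with Ni by that without Ni, on the log2 scale, and it holds only as far as the tables share a common scale. In TM 1 of the 6 passed a log2 ratio of 1 (4.6% of the 1131 genes did), and in NTM 1 did (8.13% of the 1131 genes). AT5G17220 was the gene in TM, with 80.2 FPKM with Ni and 36.4 FPKM without Ni, a log2 ratio of 1.14, and 18 of the 1131 genes had a higher ratio. In NTM it had 21.2 FPKM with Ni and 13.7 FPKM without Ni, a log2 ratio of 0.63. It was the only GST gene of the 6 with a higher value under Ni in TM.

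AT3G43800 was the gene in NTM, with 20.8 FPKM with Ni and 42.8 FPKM without Ni, a log2 ratio of -1.04. In TM it had 57.0 FPKM with Ni and 69.4 FPKM without Ni, a log2 ratio of -0.28. AT1G27130 had ratios of -0.52 in TM and -0.99 in NTM, and AT1G10370 ratios of -0.88 in TM and -0.63 in NTM. These 3 tau genes had lower values with Ni in both ecotypes. AT2G29480 (-0.59 in TM and 0.01 in NTM) and AT1G78340 (-0.14 in TM and 0.19 in NTM) had ratios of opposite sign in the ecotypes, of which those in NTM and that of AT1G78340 in TM were smaller than the median size over the 1131 genes, 0.24 in TM and 0.32 in NTM. Over the 6 genes the median ratio was -0.40 in TM and -0.31 in NTM, where all 1131 genes had -0.01 and 0.05.

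**Figure D4:**
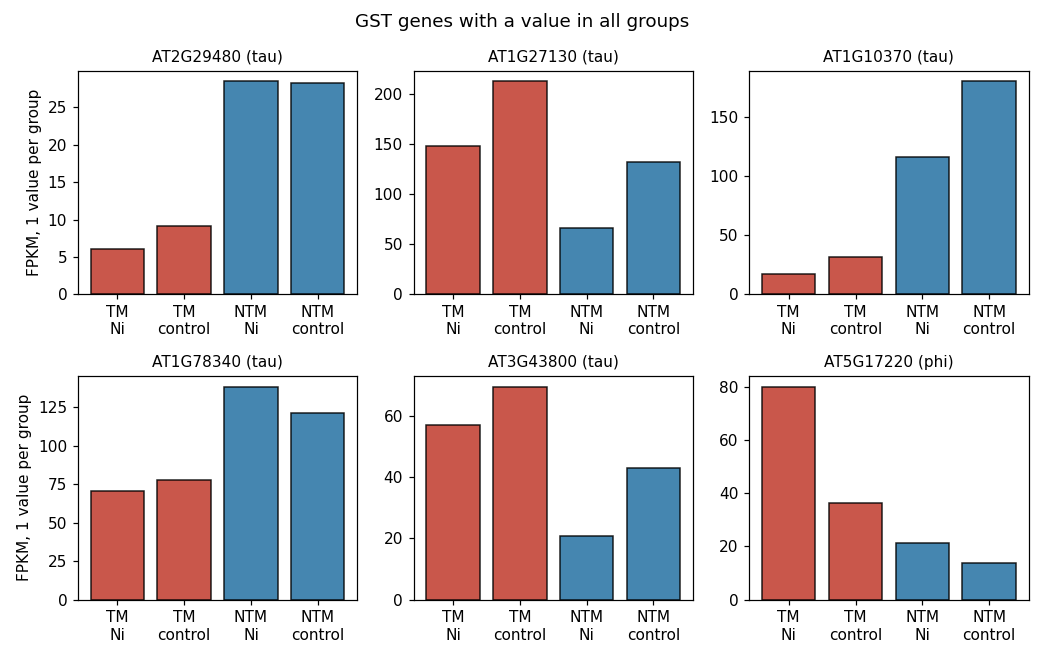
FPKM (vertical axis, from 0, 1 value per group and no error) of the 6 GST genes with a value in all groups, in TM with Ni, TM control, NTM with Ni and NTM control. AT5G17220 stood highest in TM with Ni (80.2 FPKM), and AT1G10370 was lower in both TM groups (16.9 and 31.3 FPKM) than in both NTM groups (117 and 180 FPKM).

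Other genes of glutathione metabolism were looked up in the same way, and the share of them listed likewise has no background to be set against. Of 18 such genes (synthesis, reduction, degradation, phytochelatin synthesis, dehydroascorbate reduction and vacuolar ABCC transport), 1 was listed with Ni and 2 without Ni, all lower in TM, as were 53.8% of all listed genes with Ni and 55.5% without Ni. With Ni it was AT1G30400, of the ABCC transporters that move glutathione conjugates into the vacuole, with 30.7 FPKM in TM and 59.7 FPKM in NTM and a log2 ratio of -0.96. Without Ni these were AT4G39640 and AT4G39650, of the genes of glutathione degradation. AT4G39640 had 8.84 FPKM in TM and 15.5 FPKM in NTM, and AT4G39650 had 3.91 FPKM in TM and 8.61 FPKM in NTM, log2 ratios of -0.80 and -1.12. The ratios of AT1G30400 and AT4G39640 were close to the medians of all listed genes, -0.91 with Ni and -0.71 without Ni. The 2 genes of glutathione synthesis and the 2 glutathione reductases were in neither table.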

How the data were processed

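Ion Proton reads of 12 root libraries were trimmed by the authors with cutadapt 1.8.1, aligned with HISAT2 2.1.0 to the *A. thaliana* genome (TAIR10) and evaluated with Cuffdiff of Cufflinks 2.2.1, versions and build as in the submitters' processing notes. The authors deposited FPKM after geometric normalization, 1 value per group, headed TPM in the group files. The authors also deposited log2 fold changes and an unadjusted p-value from Cuffdiff for TM against NTM. Neither was used, except to check the listing, where 0 rows had a p-value at or over 0.05. Depth per library is not in these files, and no error or test could be given. The test on values per library that had been foreseen was not possible with 1 value per group. Every value column was assigned to a group.

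Log2 ratios of TM over NTM, and of Ni over control for genes in both tables, were computed after 0.1 FPKM was added to each value, and sizes above 1 were counted. The alternatives were to add 1 FPKM, to require 1 FPKM or more in both groups, to centre on the table median, and to count sizes above 2. Every GST gene in either table is named. Classes were assigned from knowledge of the family, and clusters from neighbouring identifiers. Members and lists were chosen with earlier results of these data known. Starts are printed counting from 1. The ratio step was tested on simulated data. Python 3.11.15, numpy 2.4.6, pandas 2.3.3 and matplotlib 3.10.9 were used.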

Additional observations from a re-analysis of the deposited data

How the results depend on the processing

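Counts of GST genes beyond the threshold were set by the threshold itself. At 2 on the log2 scale 4 genes with Ni and 1 gene without Ni were beyond it, all lower in TM, against 12 and 8 at a threshold of 1, and 0 of the 6 genes in both tables for Ni over control in TM and 0 in NTM. The shares of all listed genes beyond 2, and their directions, were not counted. Without them neither these counts nor their direction can be called particular to the GST genes. Centring on the median raised the count in NTM for Ni over control to 2, since AT1G27130 was close to the threshold, and gave 9 higher and 5 lower GST genes without Ni. It also turned the ratios without Ni of AT1G78380 and AT1G78340 to 0.061 and 0.071. The median of the listed genes need not be a shift shared by all genes, and centred counts over all listed genes were not made. Adding 1 FPKM in place of 0.1 FPKM gave 10 genes with Ni, and at least 1 FPKM in both groups left every count as it was. No paired analysis was possible because each group has 1 value, and for the same reason no library could be left out in turn. Precision per gene is unknown without values per library.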
